A study of Homo sapiens with 4 samples.

Results

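Spliced reads of the globin genes HBG1, HBG2, HBE1, HBZ, HBA1 and HBA2 were described in chromatin-bound RNA of K562 cells, a human leukemia line with erythroid features. These are 6 of the 17665 genes with at least 1 uniquely mapped read over an annotated junction. The genes were taken by name, and every junction that used one of their annotated donor or acceptor sites was kept, which gave 47 junctions. The cells were of genotype SF3B1 K700E (2 libraries, K700E 1 and K700E 2) or of wild-type genotype (2 libraries, WT 1 and WT 2), numbered as in the labels. Per a treatment text that all 4 samples share, a modified allele was induced with doxycycline at 1 µg/ml, and cells were collected 4 days later. The labels do not say whether the wild-type cells carried such an allele or received the drug, nor whether the 2 libraries of a group came from separate cultures or clones, so the p-values below measure only the spread between these libraries. Per the labels' protocols, chromatin was prepared with 25 µM α-amanitin, a polymerase II inhibitor, in the buffers, and polyadenylated RNA (in 3 rounds) and ribosomal RNA were removed. The design text names the comparison of gene expression in nascent RNA between the genotypes.

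Hemoglobin is a tetramer of alpha-like and beta-like globin chains that each hold a heme group. The beta-like genes lie on chromosome 11 and the alpha-like genes on chromosome 16, and along each cluster they are used in turn during development. HBE1 (epsilon) and HBZ (zeta) encode embryonic chains, HBG1 and HBG2 (gamma) the fetal beta-like chains, and HBA1 and HBA2 (alpha) the alpha chain of fetal and adult life. K562 cells are known for making embryonic and fetal hemoglobin. SF3B1 is a subunit of the U2 small nuclear ribonucleoprotein, which recognises the branch point upstream of an acceptor, and its K700E mutation is known for the use of cryptic acceptors a short distance upstream of the annotated ones.

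The globin genes share a plan of 3 exons and 2 introns, and the copies of each pair are nearly the same sequence. HBG1 (ENSG00000213934.8) is annotated at chr11:5248079-5249859 and HBG2 (ENSG00000196565.14) at chr11:5253190-5505605, both on the minus strand of GRCh38. HBE1 (ENSG00000213931.6) is annotated at chr11:5268345-5505652 on the same strand. The spans of HBG2 and HBE1 are long because some of their annotated transcripts begin near one distant point upstream. HBZ (ENSG00000130656.4) lies at chr16:152687-154503, HBA2 (ENSG00000188536.13) at chr16:172876-173710 and HBA1 (ENSG00000206172.8) at chr16:176680-177522, all on the plus strand. Intron 1 is 122 nt long in HBG1, HBG2 and HBE1, and intron 2 is 880 nt in HBG1, 886 nt in HBG2 and 856 nt in HBE1. Intron 1 is 887 nt long in HBZ and 117 nt in HBA1 and HBA2, and intron 2 is 175 nt in HBZ, 149 nt in HBA1 and 142 nt in HBA2.

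The spliced sequences that a read must match to be counted are shown because they set which genes can be told apart. Each gives 30 bases of coding exon on either side of the junction from the GENCODE release 29 transcripts on GRCh38, 5′ to 3′, with capitals for the last 2 bases before and the first 2 bases after the junction.
HBG1 and HBG2 intron 1: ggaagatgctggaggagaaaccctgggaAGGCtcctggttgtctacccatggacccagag
HBE1 intron 1: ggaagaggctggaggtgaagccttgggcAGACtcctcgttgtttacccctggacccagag
HBG1 and HBG2 intron 2: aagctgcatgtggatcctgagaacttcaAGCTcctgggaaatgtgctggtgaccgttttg
HBE1 intron 2: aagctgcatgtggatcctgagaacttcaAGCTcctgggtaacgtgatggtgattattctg
HBA1 and HBA2 intron 1: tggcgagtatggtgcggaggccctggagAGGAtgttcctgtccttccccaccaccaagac
HBZ intron 1: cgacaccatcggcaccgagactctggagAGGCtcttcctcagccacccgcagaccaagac
HBA1 and HBA2 intron 2: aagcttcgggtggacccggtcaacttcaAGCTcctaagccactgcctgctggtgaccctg
HBZ intron 2: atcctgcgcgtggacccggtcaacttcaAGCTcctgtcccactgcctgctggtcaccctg
HBG1 and HBG2 do not differ over these bases, and neither do HBA1 and HBA2. HBE1 differs from HBG1 at 9 of the 60 bases around intron 1 and at 7 around intron 2, and HBZ differs from HBA1 at 24 and at 8.

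Over 441 coding bases of the reference transcripts the gamma copies differ at 2. Which bases the gamma copies of K562 cells carry at these sites was not checked. The sites are C135T in exon 2 and C95G in exon 3, with the HBG1 base first and positions counted from 1 at the first base of that exon. The second is the change that gives the alanine and glycine forms of the gamma chain. The bases around each site are shown with the differing base in capitals.
HBG1 exon 2: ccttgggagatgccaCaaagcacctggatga
HBG2 exon 2: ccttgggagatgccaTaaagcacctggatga
HBG1 exon 3: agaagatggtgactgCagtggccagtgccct
HBG2 exon 3: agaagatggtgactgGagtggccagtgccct
In a window of 150 bases that crosses a junction with at least 3 bases on either side, intron 1 of HBG1 and that of HBG2 could each be told from the other copy in 13 of 145 positions (8.97%). Intron 2 could be told from the other copy and from a readthrough model described below in 59 of 145 positions (40.7%) for HBG1 and in 53 (36.6%) for HBG2. The alpha copies could be told apart in 0 of 130 positions at intron 1 and in 4 of 145 (2.76%) at intron 2. HBZ and its near copy HBZP1 could be told apart in 74 (51.0%) and 68 (46.9%) of 145 positions. No position of a 75-base window told any of these copies apart. The other read of a pair can also place a read, and was not part of this count.

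Uniquely mapped junction reads numbered 4297393 and 5313934 in K700E cells and 3576184 and 3680968 in wild-type cells, and multiply mapped ones 434986 and 589117 in K700E cells and 422337 and 406145 in wild-type cells. Levels below are in CPM, a read count per 1e6 unique junction reads within genes, with library sizes scaled by TMM. The 12 erythroid markers all had reads, at a summed 3355 and 5161 CPM in K700E libraries and 3230 and 4246 CPM in wild-type libraries. The labels call the cells immortalized epithelial, and 6 of 8 epithelial markers had a read, at a summed 348 and 443 CPM in K700E libraries and 483 and 371 CPM in wild-type libraries. KRT8 and KRT18 had 132 to 214 CPM, KRT19 had 40.1 to 69.9, EPCAM had 12.3 to 16.7, KRT14 and CLDN4 had 1 read each, and CDH1 and KRT5 had none. Of 8 markers in each of the other lists, 6 megakaryocyte, 4 myeloid and 4 lymphoid ones had a read. MPO, ELANE, CEBPA, CD14, CD79A, MS4A1, PAX5, CD2, GP1BA and PF4 were at 0. The summed myeloid level was 79.7 to 114 CPM in K700E libraries and 156 to 204 CPM in wild-type libraries, and the lymphoid level was 2.27 to 4.99 CPM in K700E libraries and 10.8 to 14.4 CPM in wild-type libraries. Neither sum overlapped between the groups, which 2 against 2 libraries can show by chance (smallest possible exact permutation p 0.333). None of the myeloid or lymphoid genes passed the test across all genes, which called 0.951% of them. The megakaryocyte sum, nearly all of it ITGA2B, ran 146 to 619 CPM in K700E libraries and 152 to 416 CPM in wild-type libraries.

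Of 20 annotated introns of the 6 genes, 19 were listed in at least 1 library, with 1872 unique and 10456 multiply mapped reads. Multiply mapped reads made up 88.9% of the HBG1 reads, 85.03% of the HBG2 reads, 73.6% of the HBZ reads, 99.2% of the HBA1 reads and 99.7% of the HBA2 reads. HBE1, which has no near copy, had 363 unique reads and 2 multiply mapped ones. A multiply mapped read is counted at each copy it fits, so the levels of a pair are given below as the unique reads of both copies plus the mean of their multiply mapped counts. The unique globin reads were 0.00882% (Wilson 95% interval 0.00798 to 0.00975) of all unique junction reads in K700E 1 and 0.0137% (0.0127 to 0.0147) in K700E 2. They were 0.00993% (0.00895 to 0.0110) in WT 1 and 0.0111% (0.0101 to 0.0123) in WT 2. These intervals cover counting error only. The group means differed by 0.000727 percentage points, and the groups overlapped (2-sided exact permutation p = 1, from the 6 ways to assign 4 libraries, of which the smallest possible p is 0.333).

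The fetal gamma genes carried most of the globin signal. The gamma pair had 1039 and 2617.5 reads in K700E libraries, against 1312 and 1320 in wild-type libraries. In CPM these were 262 and 544 in K700E libraries and 401 and 397 in wild-type libraries. K700E 1 was the lowest library and K700E 2 the highest, with both wild-type libraries between them. The K700E libraries differed 2.08-fold from each other and the wild-type ones 1.01-fold. The means were 403 ± 200 CPM in K700E and 399 ± 2.94 CPM in wild type (SD, n = 2 each), a log2 change of 0.02 (SE 0.31, adjusted p = 0.995, edgeR's quasi-likelihood test with Benjamini-Hochberg adjustment over 10828 genes). At an adjusted p under 0.05, 0 of the 2 globin pairs were called, against 0.951% of all genes tested. Without K700E 1 the log2 change of the gamma pair was 0.46, and without K700E 2 it was -0.59. The value therefore rests on which K700E library is kept. In RNA from whole cultures, fewer cells that express a gene and less RNA per cell cannot be told apart.

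**Figure D1:**
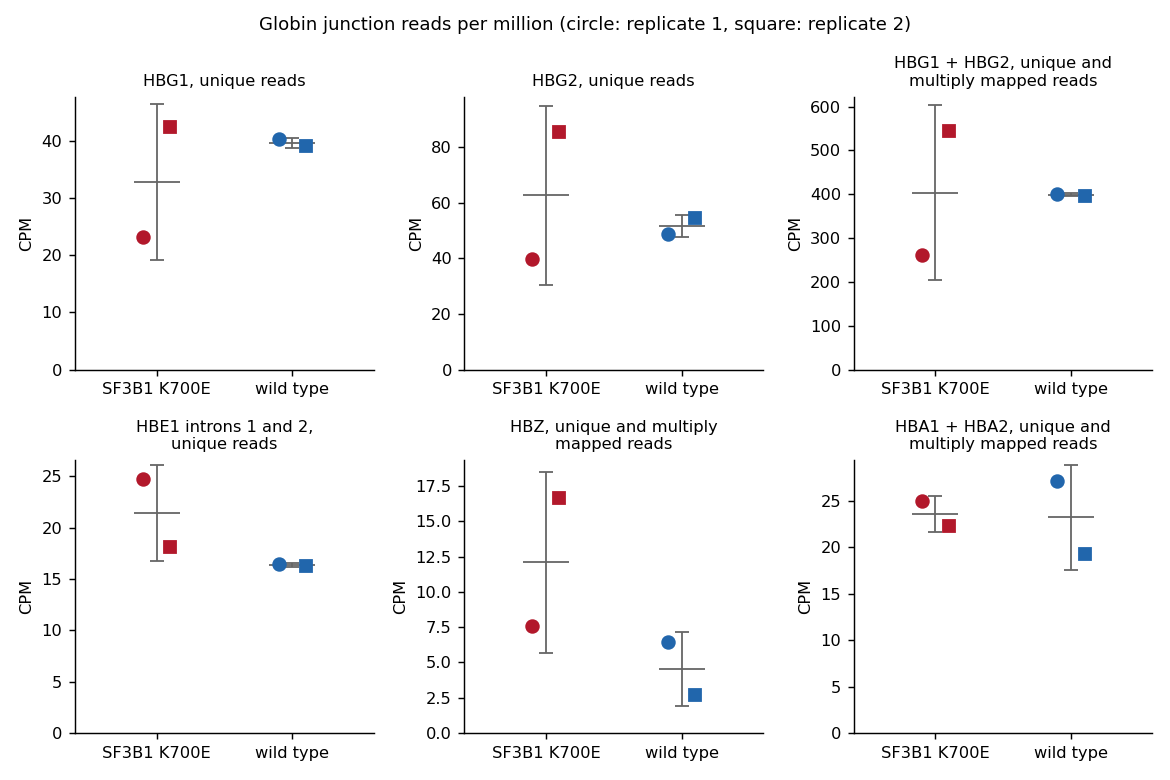
Junction read level (CPM, y axis from 0) of the globin genes in SF3B1 K700E and wild-type libraries; circles are replicate 1, squares replicate 2, bars the mean with SD (n = 2). For HBG1, HBG2 and the gamma pair the K700E libraries lie far apart, at 262 and 544 CPM for the pair, with the wild-type libraries at 401 and 397 CPM between them.

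By unique reads alone, HBG1 had 92 and 204 reads in K700E libraries and 132 and 130 in wild-type libraries. Its level was 23.2 and 42.4 CPM in K700E cells, against 40.3 and 39.1 CPM in wild-type cells, with a log2 change of -0.27 (SE 0.32, adjusted p = 0.885 by edgeR). HBG2 had 158 and 411 unique reads in K700E libraries and 160 and 181 in wild-type libraries. Its level was 39.9 and 85.5 CPM in K700E cells, against 48.9 and 54.4 CPM in wild-type cells, with a log2 change of 0.28 (SE 0.34, adjusted p = 0.887 by edgeR). For both genes the groups overlapped, since the K700E values spanned those of wild type in HBG1 and in HBG2. Without K700E 1 the log2 change of HBG1 was 0.10, and without K700E 2 that of HBG2 was -0.36, each with its sign turned. Among the genes tested one by one, 0 of the 3 globin genes with enough reads (HBG1, HBG2 and HBE1) were called, where 0.951% of all genes were, 37 higher and 66 lower in K700E. None of the 3 had an unadjusted p under 0.05, and DESeq2 called none of them either.

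The unique reads, given to a copy by its reference bases, split unevenly between the gamma copies, and in opposite ways at the 2 introns. At intron 1, HBG1 had 11 and 18 unique reads in K700E libraries and 13 and 13 in wild-type libraries. HBG2 had 94 and 254 there in K700E libraries and 88 and 115 in wild-type libraries. At intron 2 the order was turned, with 81 and 186 unique reads of HBG1 in K700E libraries and 119 and 117 in wild-type libraries. HBG2 had 64 and 156 unique reads at intron 2 in K700E libraries and 72 and 66 in wild-type libraries. The multiply mapped counts at intron 1 were close for the copies, at 490 and 1159 for HBG1 and 530 and 1250 for HBG2 in K700E libraries, and at 662 and 650 for HBG1 and 683 and 671 for HBG2 in wild-type libraries. At intron 2 they were 244 and 654 for HBG1 and 313 and 939 for HBG2 in K700E libraries, and 306 and 305 for HBG1 and 389 and 389 for HBG2 in wild-type libraries. Another junction, which joins the HBG2 donor of intron 2 to the HBG1 acceptor over 5804 nt and belongs to the annotated readthrough model AC104389.5, had 343 and 981 multiply mapped reads in K700E libraries and 414 and 422 in wild-type libraries. It had 0 unique reads in each of the 4 libraries, so its reads also fitted HBG1, HBG2 or both, and it gives no count of readthrough RNA.

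**Figure D2:**
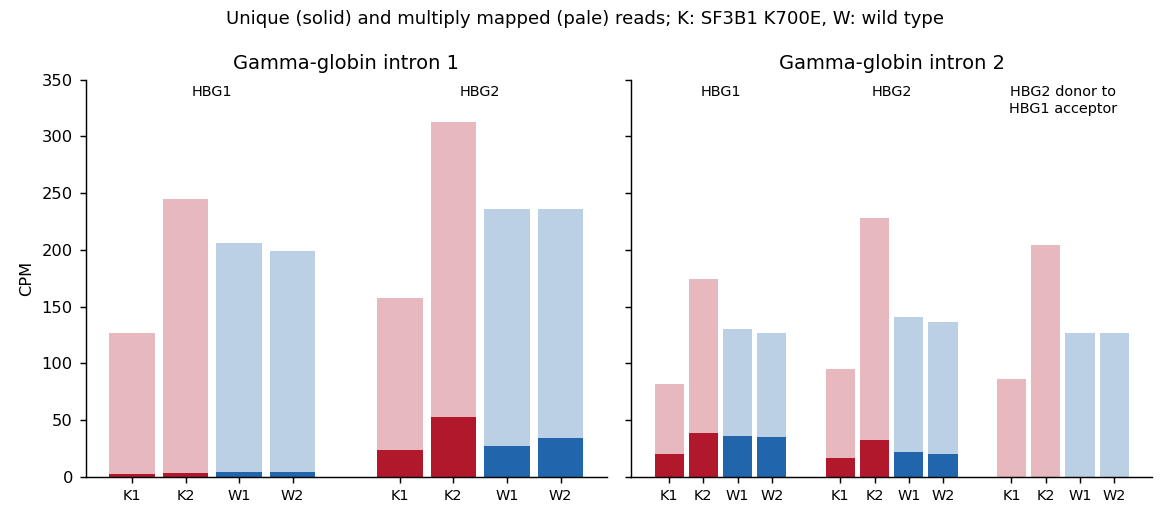
CPM (y axis from 0) at the gamma-globin introns in SF3B1 K700E (K1, K2) and wild-type (W1, W2) libraries; solid bars are unique reads, pale bars multiply mapped reads, and the last group at intron 2 is the junction from the HBG2 donor to the HBG1 acceptor. Pale bars make up most of each bar, HBG1 has few unique reads at intron 1 (11 and 18 in K700E, 13 and 13 in wild type), and the junction between the copies has none.

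The HBG1 share of the unique gamma reads was 36.8% (Wilson 95% interval 31.1 to 42.9) in K700E 1 and 33.2% (29.6 to 37.0) in K700E 2. It was 45.2% (39.6 to 50.9) in WT 1 and 41.8% (36.5 to 47.3) in WT 2. Both K700E libraries lay below both wild-type libraries. The mean was 35.0% ± 2.57 in K700E and 43.5% ± 2.41 in wild type (SD, n = 2 each), a difference of -8.52 percentage points that gave the smallest p this design allows (exact permutation test, 2-sided p = 0.333). At intron 2 alone the share was 55.9% and 54.4% in K700E libraries and 62.3% and 63.9% in wild-type libraries. At intron 1 alone it was 10.5% and 6.62% in K700E libraries and 12.9% and 10.2% in wild-type libraries, where the groups overlapped. With multiply mapped reads added at each copy the difference was -2.43 percentage points. The unique reads are a small and position-dependent part of the gamma reads, so the share is not the share of HBG1 transcripts.

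HBE1, the embryonic epsilon gene, was read almost wholly from unique reads. Over intron 1 it had 65 and 51 reads in K700E libraries and 36 and 36 in wild-type libraries. Over intron 2 it had 33 and 36 reads in K700E libraries and 18 and 18 in wild-type libraries. Together these were 24.7 and 18.1 CPM in K700E cells and 16.5 and 16.2 CPM in wild-type cells, and the groups did not overlap. At intron 1 alone they overlapped, at 16.398 and 10.605 CPM in K700E cells and 11.002 and 10.822 CPM in wild-type cells. At intron 2 alone they did not, at 8.325 and 7.486 CPM in K700E cells and 5.501 and 5.411 CPM in wild-type cells. Counting introns 1 and 2 alone, the log2 change was 0.38 (SE 0.32, adjusted p = 0.799 by edgeR), a choice made after the reads were seen. With all annotated introns the level was 30.3 and 19.1 CPM in K700E cells and 16.8 and 28.9 CPM in wild-type cells, and the log2 change was 0.11 (SE 0.36, adjusted p = 0.978 by edgeR). WT 2 then lay beside K700E 1 rather than beside WT 1. Without K700E 1 the log2 change over all introns was -0.25, and without WT 1 it was -0.23.

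Most of the reads that set WT 2 apart cross junctions into an acceptor at chr11:5270157, upstream of the first exon of the main HBE1 transcript. This acceptor is used by 2 annotated HBE1 transcripts that begin far upstream, among the odorant receptor genes that neighbour the cluster. In all it had 25 and 5 unique reads in K700E libraries and 6 and 42 in wild-type libraries. These totals include unannotated junctions, which the HBE1 level above leaves out. Per 100 reads over intron 1, these were 38.5 and 9.80 in K700E libraries and 16.7 and 117 in wild-type libraries. K700E 1 and WT 2 were high, K700E 2 and WT 1 were low, and the groups overlapped. Its longest annotated intron, 235.4 kb long, had 10 and 4 reads in K700E libraries and 1 and 24 in wild-type libraries. The read in WT 1 had an overhang of 3 bases on its shorter side, against 60 bases for the best read in each of the other 3 libraries. The 11.75 kb intron of the other such transcript had 7 and 0 reads in K700E libraries and 0 and 10 in wild-type libraries. The first intron of that transcript, from the same distant donor to another acceptor, had 5 and 1 reads in K700E libraries and 0 and 8 in wild-type libraries. Its reads are part of the HBE1 level over all annotated introns.

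The junction of 75.62 kb into this acceptor was the only unannotated globin junction with at least 10 unique reads over the 4 libraries. It was not in the index used for alignment, and in GENCODE release 29 it belongs to a transcript of AC104389.4. It had 6 and 0 reads in K700E libraries and 4 and 5 in wild-type libraries. An unannotated junction of 8.192 kb into the same acceptor had 1 and 1 reads in K700E libraries and 1 and 3 in wild-type libraries. The distant donor at chr11:5505568 of the 235.4 kb intron is shared with OR51B5, an odorant receptor gene, whose junction from it had 13 and 5 reads in K700E libraries and 9 and 7 in wild-type libraries. That junction was present in all 4 libraries, unlike the 11.75 kb intron of HBE1. An HBG2 intron of 250836 nt, from a donor nearby, was the single annotated globin intron that was not listed.

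**Figure D3:**
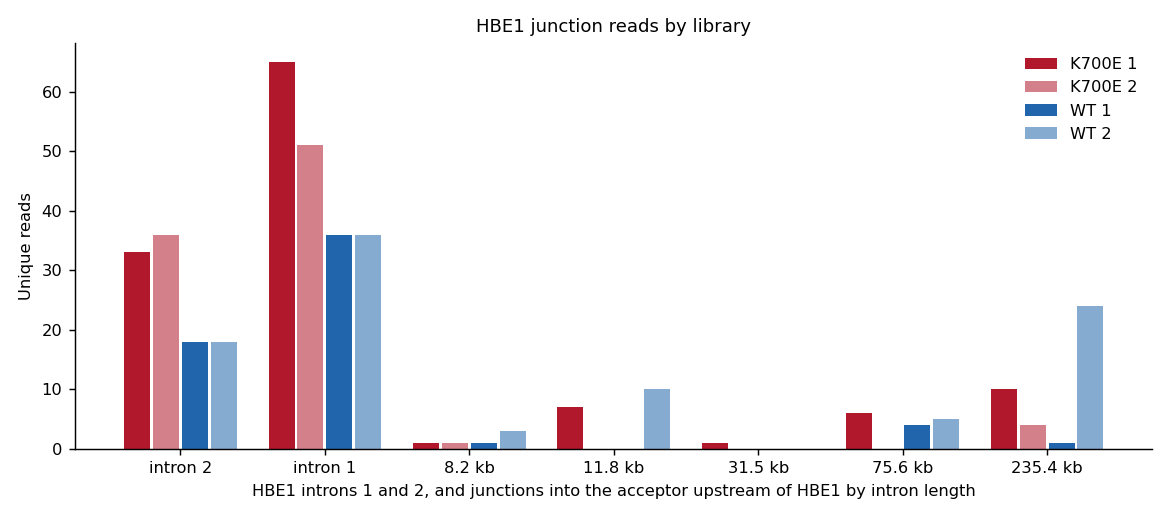
Unique reads (y axis, not scaled for depth) over HBE1 introns 1 and 2 and over each junction into the acceptor upstream of HBE1, by intron length, in SF3B1 K700E (red) and wild-type (blue) libraries. Before scaling, introns 1 and 2 had more reads in both K700E libraries than in wild type (65 and 51 against 36 and 36 at intron 1). Scaled for depth, intron 1 in K700E 2 (10.605 CPM) lay below both wild-type libraries (11.002 and 10.822 CPM). The distant junctions were mostly from K700E 1 and WT 2.

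HBZ, the embryonic zeta gene, had few reads. It had 9 and 20 unique reads in K700E libraries and 5 and 3 in wild-type libraries, or 2.27 and 4.16 CPM in K700E cells and 1.53 and 0.902 CPM in wild-type cells. With multiply mapped reads, which HBZP1 shares, it had 30 and 80 reads in K700E libraries and 21 and 9 in wild-type libraries. Both K700E libraries lay above both wild-type libraries by either count. Its unique reads were too few for the filter on low counts. With multiply mapped reads added at every gene it entered the table with a log2 change of 1.42 (SE 0.54, unadjusted p = 0.0239, adjusted p = 0.347 by edgeR), and with no filter the unique reads gave 1.41 (SE 0.83, adjusted p = 0.699). HBZ was therefore not called under any setting in which it was tested.

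The alpha pair had 99 and 107 reads in K700E libraries and 89 and 64 in wild-type libraries, 4 of them unique over the 4 libraries. In CPM these were 25.0 and 22.3 in K700E cells and 27.2 and 19.2 in wild-type cells, with the K700E values inside the wild-type range. The log2 change was 0.02 (SE 0.31, adjusted p = 0.995 by edgeR). HBA1 and HBA2 could not be counted apart, and their multiply mapped counts were equal in each library, at 99 and 106 in K700E and 86 and 64 in wild type. An annotated donor that lengthens intron 1 to 166 nt had 4 and 1 multiply mapped reads at each copy in K700E libraries and 4 and 5 in wild-type libraries.

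**Figure D4:**
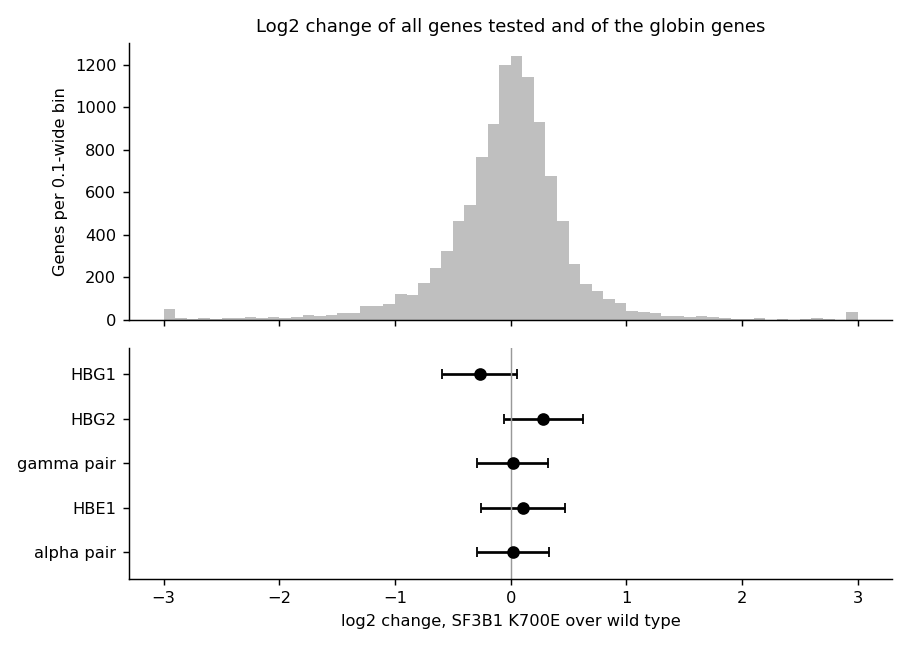
Histogram of log2 changes, SF3B1 K700E over wild type, for the 10828 genes tested with each pair as 1 gene (top; 83 genes beyond 3 are in the end bins), and the log2 change with SE of HBG1, HBG2, the gamma pair, HBE1 and the alpha pair (bottom). All 5 values lie between -0.27 and 0.28, near the centre of the histogram.

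Levels were compared between genes as reads per intron over introns 1 and 2, since each such intron is 1 junction. On that scale, with multiply mapped reads, the gamma pair had 131 and 272 CPM per intron in K700E cells and 200 and 198 in wild-type cells. HBE1 had 12.4 and 9.15 CPM per intron in K700E cells and 8.25 and 8.27 in wild-type cells, and the alpha pair had 11.98 and 11.02 in K700E cells and 12.99 and 8.87 in wild-type cells. HBZ was lowest, at 3.78 and 8.32 CPM per intron in K700E cells and 3.21 and 1.35 in wild-type cells. The order was gamma pair first and HBZ last in each of the 4 libraries, while HBE1 and the alpha pair, its neighbour, changed places between libraries and did not differ beyond their spread. The gamma pair had 10.9 and 24.7 times the reads per intron of the alpha pair in K700E libraries and 15.4 and 22.3 times in wild-type libraries. By mean CPM of unique reads alone, HBG2 ranked at place 3958 of the 10828 genes tested and HBG1 at place 5167. As 1 gene with multiply mapped reads, the gamma pair ranked at place 466 of 10828. Genes outside the pairs were counted there by unique reads only.

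Among the embryonic and fetal beta-like reads over introns 1 and 2, HBE1 made up 8.62% (Wilson 95% interval 7.13 to 10.4) in K700E 1 and 3.26% (2.65 to 3.99) in K700E 2. It made up 3.95% (3.04 to 5.12) in WT 1 and 4.00% (3.09 to 5.17) in WT 2. K700E 1, the library with the lowest gamma level and the highest HBE1 level over these introns, stood above the other 3, and the groups overlapped (exact permutation 2-sided p = 1). K700E minus wild type was 1.96 points over all libraries and -0.723 points without K700E 1. Of the HBZ and alpha pair reads, HBZ made up 24.0% and 43.0% in K700E libraries and 19.8% and 13.2% in wild-type libraries. The groups did not overlap, with a mean of 33.5% ± 13.4 in K700E and 16.5% ± 4.65 in wild type (SD, n = 2 each), a difference of 17.0 percentage points (exact permutation 2-sided p = 0.333, the smallest possible). Without K700E 2 the difference was 7.48 percentage points. That share counts reads that HBZP1 also fits. With the unique HBZ reads alone it was 8.65% and 15.9% in K700E libraries and 5.56% and 4.84% in wild-type libraries, a difference of 7.07 percentage points (exact permutation 2-sided p = 0.333), or 3.46 without K700E 2.

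No globin junction was called as used differently between the genotypes. Within genes, 12 globin-site junctions were tested for use relative to the other junctions of their gene, and 0 were called, where 0.0110% of 117976 junctions were. The smallest unadjusted p among them was 0.214, for intron 2 of HBZ, and 0 were under 0.05 (edgeR's diffSpliceDGE). Among junctions that share a donor or an acceptor, 6 at globin sites had enough reads and gave 8 tests, since 2 of them were tested both by donor and by acceptor, and 0 were called, where 0.0539% of 46342 tests were. The smallest unadjusted p among these was 0.563, so 0 were under 0.05. All 6 were at the distant HBE1 and HBG2 sites, since no alternative site at introns 1 or 2 reached 10 unique reads.

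The log2 ratio of intron 2 to intron 1 reads in the gamma pair was -0.54 and -0.38 in K700E libraries and -0.52 and -0.57 in wild-type libraries. By that count intron 2 had fewer reads than intron 1 in each library, and the groups overlapped (exact permutation 2-sided p = 0.667). Taking the larger multiply mapped count of the copies, or that of the readthrough junction at intron 2, also left intron 2 lower in each library. The direction turned only when multiply mapped reads were left out. The unique reads of both copies numbered 145 and 342 at intron 2 and 105 and 272 at intron 1 in K700E libraries. In wild-type libraries they numbered 191 and 183 at intron 2 and 101 and 128 at intron 1. The ratio for HBE1 was -0.98 and -0.50 in K700E libraries and -1 in each of the 2 wild-type libraries. Both K700E libraries were above wild type, K700E 1 by little (exact permutation 2-sided p = 0.333, the smallest possible). For the alpha pair it was -0.21 and -0.61 in K700E libraries and -0.38 and -0.96 in wild-type libraries, which overlapped. In the unique reads alone the ratio was 2.88 and 3.37 for HBG1 in K700E libraries and 3.19 and 3.17 in wild-type libraries. It was -0.55 and -0.70 for HBG2 in K700E libraries and -0.29 and -0.80 in wild-type libraries. The gap between the copies was thus present in each of the 4 libraries, as in the bars of unique and multiply mapped gamma reads.

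No read joined an annotated donor of a globin intron 1 or 2 to an acceptor within 100 nt upstream of the annotated one, in K700E or in wild type. At gamma intron 1 of HBG2, 0 of 348 unique reads in the 2 K700E libraries allow a share of up to 0.862%, and the count of 0 in the wild-type libraries allows 1.48%. At intron 2 of HBG1, 0 of 267 unique reads in K700E allow up to 1.12% and 0 of 236 in wild type allow 1.27%. At HBE1 intron 1 the limits were 2.59% of 116 reads in K700E and 4.17% of 72 in wild type. At HBZ intron 1 they were 17.6% of 17 unique reads in K700E, so that a cryptic acceptor of moderate use there was not detectable at this depth. These limits take 3 reads as the most that a count of 0 allows and cover counting error only.

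The other globin junctions were rare. A second acceptor, 28 nt downstream of that of HBE1 intron 1 and inside exon 2, was used by 2 of 67 reads (2.99%, Wilson 95% interval 0.822 to 10.2) in K700E 1 and by 1 of 52 (1.92%, 0.340 to 10.1) in K700E 2. It was used by 2 of 38 (5.26%, 1.46 to 17.3) in WT 1 and by 1 of 37 (2.703%, 0.479 to 13.8) in WT 2, with overlapping intervals in the 4 libraries. In all, 25 junctions at globin sites were outside the index, with 59 unique reads, and 20 of them spanned more than 1 kb. They made up 5.72% (Wilson 95% interval 3.84 to 8.44) of the unique globin reads in K700E 1 and 0.817% (0.375 to 1.77) in K700E 2. They made up 3.01% (1.69 to 5.30) in WT 1 and 4.43% (2.85 to 6.81) in WT 2. K700E 2 stood below the other 3 libraries, and the groups overlapped (exact permutation 2-sided p = 1).

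The genes whose pattern over the 4 libraries was most like the gamma pair were MBD6, PBX2 and TES, among 4308 genes with a mean of at least 50 CPM. Likeness was the root mean square difference of log2 values after centring, over 4 libraries, and it was 0.04 for MBD6, 0.06 for PBX2 and 0.06 for TES. MBD6 had 163 and 338 CPM in K700E libraries and 232 and 246 in wild-type libraries. The like genes were chosen by these same 4 libraries, so a shared order of libraries follows from the choice. Among 4308 genes, close matches over only 4 libraries can also arise by chance. For HBE1 over all introns they were NCKAP1, RTN4 and DYM, at differences of 0.02, 0.03 and 0.04, each high in K700E 1 and WT 2. NCKAP1 had 536 and 335 CPM in K700E libraries and 307 and 501 in wild-type libraries. For HBZ, taken by its few unique reads, they included FADS1 and AKAP13, at differences of 0.14 and 0.18. FADS1 had 226 and 412 CPM in K700E libraries and 153 and 136 in wild-type libraries.

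Transcription factors and chromatin proteins that are known to act on the globin genes were counted next. All 39 regulators on the list had reads, 38 were tested and 0 were called, where 0.951% of all genes were. Their median log2 change was 0.05, against 0.00 over all genes tested. The regulators with the highest mean levels were DNMT1 (a DNA methyltransferase), MYB (a transcription factor of progenitor cells), LDB1 (a bridging protein of erythroid enhancer complexes), and IGF2BP3 and IGF2BP1 (RNA-binding proteins of fetal cells). DNMT1 had 610 and 638 CPM in K700E cells and 635 and 631 in wild-type cells, and MYB had 519 and 530 CPM in K700E cells and 486 and 558 in wild-type cells. LDB1 had 259 and 381 CPM in K700E cells and 409 and 342 in wild-type cells. Their log2 changes were between -0.23 for LDB1 and 0.08 for IGF2BP1, with standard errors of 0.21 to 0.25. An unadjusted p under 0.05 was found for 10.1% of all genes and for 1 regulator, BCL11A, a repressor of the gamma genes, which is named here after its value was seen. BCL11A had 1.26 and 0.624 CPM in K700E cells and 4.28 and 4.81 CPM in wild-type cells, which did not overlap. These were only 5 and 3 reads in K700E libraries and 14 and 16 in wild-type libraries. On these few reads the log2 change was -2.26 (SE 0.66, adjusted p = 0.183 by edgeR). The lymphoid marker sum was also lower in K700E, and its part in this value was not tested. GATA1, the main erythroid factor, was likewise named after its value was seen. It had 79.2 and 140 CPM in K700E cells and 152 and 121 in wild-type cells, which overlapped. The log2 change of GATA1 was -0.31 (SE 0.29, adjusted p = 0.833 by edgeR).

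**Figure D5:**
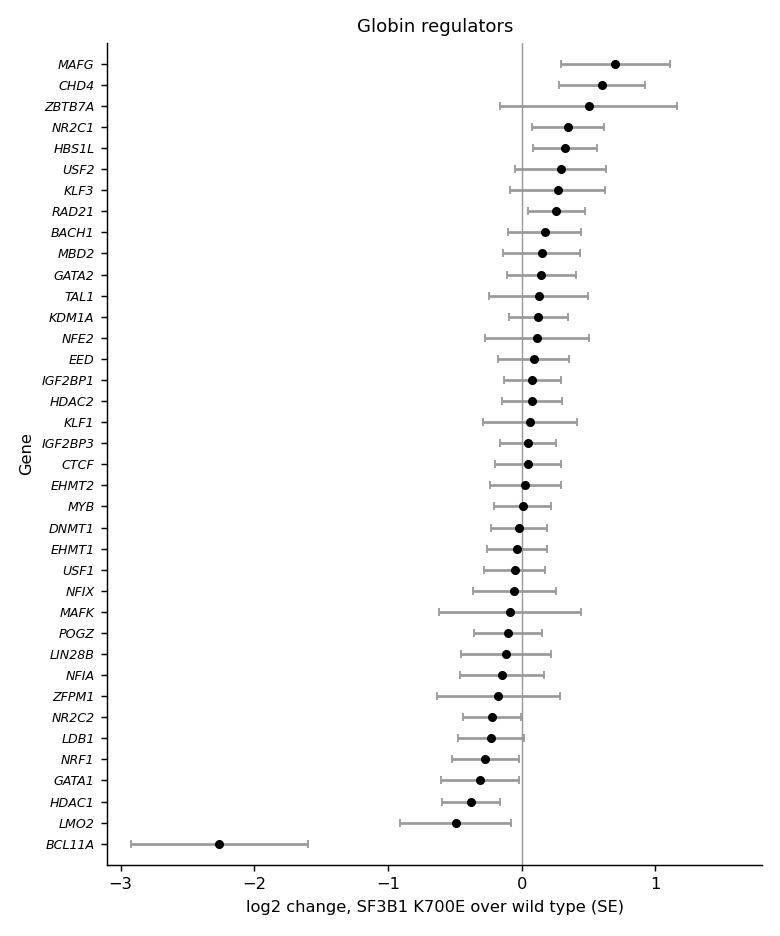
Log2 change, SF3B1 K700E over wild type, with SE for the 38 globin regulators that were tested. No gene passed the adjusted threshold. BCL11A, at -2.26 and on few reads, lies farthest from 0.

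Of 18 genes for chain partners and heme supply, 16 were tested and 0 were called, where 0.951% of all genes were, with a median log2 change of -0.06. AHSP, the chaperone of free alpha chains, had no read in any library. ALAS2, the first enzyme of erythroid heme synthesis, had 148 and 236 CPM in K700E cells and 151 and 216 in wild-type cells (log2 change 0.07, SE 0.28). TFRC, the transferrin receptor that brings iron into the cell, had 1116 and 1659 CPM in K700E cells and 1213 and 1640 in wild-type cells. FTH1 and FTL, the ferritin chains that store iron, had log2 changes of -0.17 (SE 0.22) and 0.17 (SE 0.25).

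Of the other globin genes listed, 5 had a read and 2 were tested. Beta-like genes not named here were not analysed here. HBD, the delta gene, had 1.26 and 2.703 CPM in K700E cells and 2.75 and 4.51 CPM in wild-type cells (log2 change -0.84, SE 0.64, adjusted p = 0.762 by edgeR). HBBP1, a pseudogene of the beta cluster, had 2.52 and 4.57 CPM in K700E cells and 2.14 and 3.31 CPM in wild-type cells (log2 change 0.39, SE 0.60, adjusted p = 0.926 by edgeR). HBQ1, the theta gene, had 1.01 and 1.46 CPM in K700E cells and 2.44 and 1.503 CPM in wild-type cells, so that both K700E libraries lay below both wild-type ones, on a few reads each. CYGB had 1 read in all and ADGB 1, while HBM, HBZP1, HBAP1, BGLT3, MB and NGB had no unique read over an annotated junction in any library.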

How the data were processed

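Per the file headers of the run logs, STAR 2.7.10a was used by the authors for 1-pass alignment of trimmed pairs. The genome was GRCh38 (patch p12), the index held 353424 junctions from GENCODE release 27, and release 22 supplied 1887 more at mapping; the submitters' processing notes name STAR and hg38. The deposited junction counts are uniquely and multiply mapped reads per splice junction, not normalized, per the file headers. The labels do not state strand, which here comes from each junction's splice motif.

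The members and gene lists were chosen with earlier results of these data known. Unique reads over junctions annotated in the index were given to genes by GENCODE release 29, where 99.7% of 188468 annotated junctions were found; 4.03% of their reads lay over introns of several genes and were left out. Gene totals were filtered with filterByExpr, scaled by TMM and tested with edgeR 4.0.16 in R 4.3.3 (quasi-likelihood, group as the only term, Benjamini-Hochberg at 0.05), with DESeq2 1.42.0 as an alternative. The standard error of a log2 change is its size over the square root of F. The biological coefficient of variation was 21.7%. Junction use was tested with diffSpliceDGE at 10 or more unique reads over the 4 libraries, within genes and within clusters sharing a site. Shares of single libraries were compared by exact permutation with scipy 1.17.1. Likeness used log2(CPM + 0.5). The fits were tested on simulated data. The named genes were the 6 members, the other globins, the listed regulators that passed the test (none did) plus the 5 of highest mean level, the chain partner and heme supply list, of which AHSP, ALAS2, TFRC, FTH1 and FTL were described with their values known, the 3 most like genes each of the gamma pair, HBE1 and HBZ (1 of them is not reported here), and unannotated junctions with at least 10 unique reads; BCL11A and GATA1 fall outside this rule.

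Files held junction counts, so unspliced RNA was not analysed here.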

Additional observations from a re-analysis of the deposited data

How the results depend on the processing

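Across the settings tried, none of the globin genes, pairs or junctions was called, and 10828 genes gave 37 calls higher and 66 lower in K700E. DESeq2 gave 63 and 154, and no filter on low counts 154 and 339. Leaving out 1 library gave 88 to 120 higher and 172 to 237 lower. The replicate block gave 59 higher and 107 lower and a gamma pair change of -0.077; same-numbered libraries did not deviate together (r = -0.21 across 10828 genes, which are not replicates), so the numbers are not taken as pairs. A block with crossed numbers, chosen after seeing the data, gave 119 higher and 292 lower.

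Leaving out 1 library, the log2 change ran from -0.76 to 0.10 for HBG1, -0.36 to 0.73 for HBG2, -0.25 to 0.57 for HBE1, -0.59 to 0.46 for the gamma pair and -0.18 to 0.30 for the alpha pair. The group difference ran from -0.00171 to 0.00317 percentage points for the globin share, -2.90 to 2.00 for the unannotated share and -10.3 to -6.70 for the HBG1 share of gamma reads. For the log2 ratio of intron 2 to intron 1 it ran from -0.30 to 0.19 in HBG1, -0.34 to 0.17 in HBG2, 0.02 to 0.50 in HBE1, 0.01 to 0.17 in the gamma pair and -0.035 to 0.55 in the alpha pair. With multiply mapped reads the difference of that ratio was 0.10 in HBG1 and 0.17 in HBG2, against -0.06 and -0.08 from unique reads, and in the gamma pair it was -0.32 from unique reads alone, against 0.09. The cause of these turns was not tested. Requiring a longest overhang of at least 20 bases, RLE scaling and library sizes without the globin genes turned no direction. Leaving out a library leaves a group of 1, so those shares and ratios are values with no test. The log2 changes without 1 library are likewise given as sizes only. The HBE1 share of beta-like reads ran from -0.723 to 4.64 percentage points and the HBZ share from 7.48 to 26.5, or 3.46 to 10.7 by unique reads. HBZ had 37 unique reads in all, which limits its precision, while the alpha pair had 4 because its copies are nearly identical.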
